A study of Homo sapiens with 17 samples.

Results

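RNA polymerase pausing sites between 100 and 300 bp past a start of a protein-coding gene, the near bound left out, are described here. A site belongs to this zone when that is its distance, on the same strand, from the nearest upstream transcript start of a protein-coding gene in GENCODE release 29 on GRCh38, on chromosomes 1 to 22 and X. Of 204137 rows in 4 deposited tables, 9197 lay in the zone, at 6895 distinct positions after starts of 3365 genes. The rule used position alone and no pausing time, but the zone was chosen with earlier results of these data known.

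The cells were HEK293, an established line derived from human embryonic kidney, grown untreated. Permeabilised cells were incubated for 0.5, 2, 8 or 32 min so that engaged polymerases could extend their RNA, and the 3′ ends of those RNAs give the polymerase position to the base. The run-on buffer either contained sarkosyl, a detergent that removes most chromatin proteins but leaves transcribing polymerases able to extend their RNA, or lacked it. Each buffer had 2 replicates, which the series' design text calls biological, and each replicate is represented by 1 table fitted over its run-on times. The 2 buffers are called sarkosyl and sarkosyl-free below. Nothing else is stated to differ between them, but their samples were entered in the archive as separate blocks. Any other difference between these sets of samples cannot be told apart from the buffer.

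After a polymerase leaves a promoter it commonly pauses a short way into the gene, held by the factors NELF and DSIF until the kinase P-TEFb releases it. Farther downstream it meets the nucleosome that flanks the promoter, which is a known barrier to elongation. The zone covers the stretch where that nucleosome is usually found in active human genes, but no nucleosome data were used here, and the name of the zone rests on distance only. The annotated start closest upstream is also not always the promoter in use. It was the most upstream start of its gene for 27.4% and 26.5% of the zone sites in the sarkosyl tables and for 23.6% and 23.6% in the sarkosyl-free tables, and the rest lay after starts of shorter transcripts inside the gene. Among the zone sites, 31.8% and 36.4% with sarkosyl against 25% and 29% without it followed a start that had a listed site 0 to 60 bp after it in any table.

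The sequences around 8 sites of the zone that all 4 tables list show the kinds of position that the results turn on. Each is the RNA-sense strand of GRCh38, 5′ to 3′, from GENCODE release 29 transcripts or the RefSeq promoter table of GRCh38.p14, with 15 bases before the site, the site in capitals and 14 bases after it. The first 3 are the sites with the largest difference toward longer times with sarkosyl among sites whose buffers do not overlap. All 3 are a G that follows a C, as are the CITED2 and SRXN1 sites printed below. CITED2 differs between buffers in the other direction, by a limma log2 difference of -2.09 ± 1.16 (SE, adjusted p = 0.32). The first 3 lie at chr9:89311320-89311349 on the plus strand, chr19:5690578-5690607 on the plus strand and chr5:140557193-140557222 on the minus strand.
CKS2: gacaagtacttcgacGaacactacgagtac
RPL36: ccaggcacagccgacGccgcggggtgagtg
SRA1: cagacccaggccggcGgacccaggcgctcg
The next 2 are sites with large differences the other way, where a G follows a G and a C follows a C. They lie at chr2:86720326-86720355 on the plus strand and chr12:112408769-112408798 on the minus strand.
RMND5A: agaaccaggtcatcgGtcggttcccgtgaa
RPL6: gtttgagaggaaggcCtgtatcttaccggg
The last 3 are shown as the extremes of the mean over the 4 tables. CITED2 is among the longest and SRXN1 and TOMM20 are among the shortest, at chr6:139374447-139374476, chr20:653132-653161 and chr1:235128776-235128805, all on the minus strand.
CITED2: gagccggtcctggacGcgacgagcccgccc
SRXN1: ctgggcagggccggcGcgggtcggggggcg
TOMM20: gtgagctgcgccgacCgctctgagggttcg

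Across the whole series, the 4 tables list 48566 and 47713 sites with sarkosyl against 66089 and 41769 without it, with no read numbers, so the depth behind a time is unknown. The unit of the pausing time is not stated, and times are given as deposited. The sarkosyl-free replicate 2 table stands apart, with a median time of 8.2 on chromosomes 1 to 22 and X against 2.23 in the other sarkosyl-free table and 1.52 and 1.36 in the sarkosyl tables. Levels are therefore compared as log2 pausing time minus the median of the same table. Both sarkosyl tables list no site on the minus strand of chromosome X, so the zone holds 0 and 0 such sites with sarkosyl against 46 and 24 without it. Of the genes taken as HEK293 markers, CKB, LIN28B and UCHL1 had listed sites within the gene, while PAX2 and NEFM had none. Of 10 markers of other cell types, HBB and PTPRC had sites and the other 8 had none. With 2 tables a buffer, the smallest p an exact permutation test can give is 0.33, and p-values here measure only the spread between these tables.

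The zone took a larger share of the sites with sarkosyl than without it. It held 2738 and 2656 sites in the sarkosyl tables and 2395 and 1408 in the sarkosyl-free tables. These were 5.86% and 5.80% of the sites on chromosomes 1 to 22 and X with sarkosyl against 3.71% and 3.47% without it, which gives a mean of 5.83% ± 0.039 (SD, n = 2) against 3.59% ± 0.17 (SD, n = 2). The buffers did not overlap (two-sided exact permutation p = 0.33). Among the sites within 300 bp of a start the picture differed, with the zone at 22.9% and 27.9% with sarkosyl against 24.5% and 24.2% without it, so there the buffers overlapped. Within the zone the sites thinned out with distance, and their median distance was 155 and 160 bp with sarkosyl against 178 and 170 bp without it. The nearest 20 bp held 678 and 589 sites with sarkosyl against 455 and 280 without it, while the farthest 20 bp held 158, 148, 187 and 97 in the same order.

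Pausing times in the zone were longer than elsewhere in both sarkosyl tables and slightly shorter than elsewhere in both sarkosyl-free tables. The median time in the zone was 2.39 and 1.52 in replicates 1 and 2 with sarkosyl, and 2.08 and 7.81 in replicates 1 and 2 of the sarkosyl-free buffer. At all other sites of chromosomes 1 to 22 and X it was 1.49, 1.35, 2.24 and 8.26. On the log2 scale the difference between the zone and the other sites was 0.68 and 0.17 for the sarkosyl tables, with a mean of 0.43 ± 0.36 (SD, n = 2). For the sarkosyl-free tables it was -0.11 and -0.081, with a mean of -0.094 ± 0.018 (SD, n = 2). The buffers differed by 0.52 and did not overlap, at the smallest p of 0.33 that the two-sided exact permutation test allows. The sarkosyl replicates lay far from each other, and sarkosyl replicate 1 carried most of their mean.

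The shift lay mainly in the upper part of the distribution. With sarkosyl, 38.2% and 32.6% of the zone sites reached the upper quartile of their table, and without it 24.3% and 22.4% did. The share at or below the lower quartile was 17.4% and 20.8% with sarkosyl against 26.5% and 26.1% without it. The shortest zone sites had times of 0.386, 0.583, 0.172 and 0.189 in the 4 tables. At a single site the fitted rate was uncertain, since the ratio of its upper to its lower quartile had a median of 2.76, 3.39, 3.44 and 2.25, close to 2.76, 3.27, 3.43 and 2.21 at the other sites.

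This difference depended on which starts were used. With only the most upstream start of each gene, the zone differed from other sites by 0.022 and -0.093 with sarkosyl (mean -0.036) and by -0.44 and -0.31 without it (mean -0.38), so the longer times with sarkosyl were no longer present, although the buffers still did not overlap. Among the zone sites as chosen here, those after a most upstream start stood at 0.20 and -0.041 relative to the table median with sarkosyl against -0.34 and -0.50 without it. Those after an internal start stood at 0.85 and 0.27 with sarkosyl against -0.026 and 0.042 without it. By contrast, zone sites whose own start had a listed site within 60 bp stood at 1.46 and 0.32 with sarkosyl against 0.039 and -0.32 without it, and those whose start had none stood at 0.25 and 0.099 with sarkosyl against -0.13 and 0.00 without it. The part played by the choice of start in the difference between buffers was not tested further.

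Taken as whole intervals, the zone formed the highest stretch in both sarkosyl tables up to 500 bp. A single step outside it could be higher, as in sarkosyl replicate 2 with 0.48 at 381 to 400 bp. Sites 0 to 60 bp after a start, where promoter-proximal pausing is known to occur, lay below the table median in every table, at -0.53 and -0.31 with sarkosyl against -0.38 and -0.37 without it. At 61 to 100 bp the values were 0.020 and -0.12 with sarkosyl against -0.33 and -0.25 without it. In the zone they were 0.66 and 0.17 with sarkosyl against -0.100 and -0.069 without it. From 300 to 500 bp they were 0.24 and 0.048 with sarkosyl against 0.12 and -0.17 without it, so there the buffers overlapped. At the near edge, the 20 bp just inside the zone gave 0.39, 0.085, -0.12 and -0.018 in the 4 tables and the 20 bp just outside gave 0.18, -0.069, -0.27 and -0.18. At the far edge, the last 20 bp inside gave 0.33, 0.10, 0.21 and 0.00 and the next 20 bp outside gave 0.100, 0.11, 0.090 and 0.085.

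**Figure D1:**
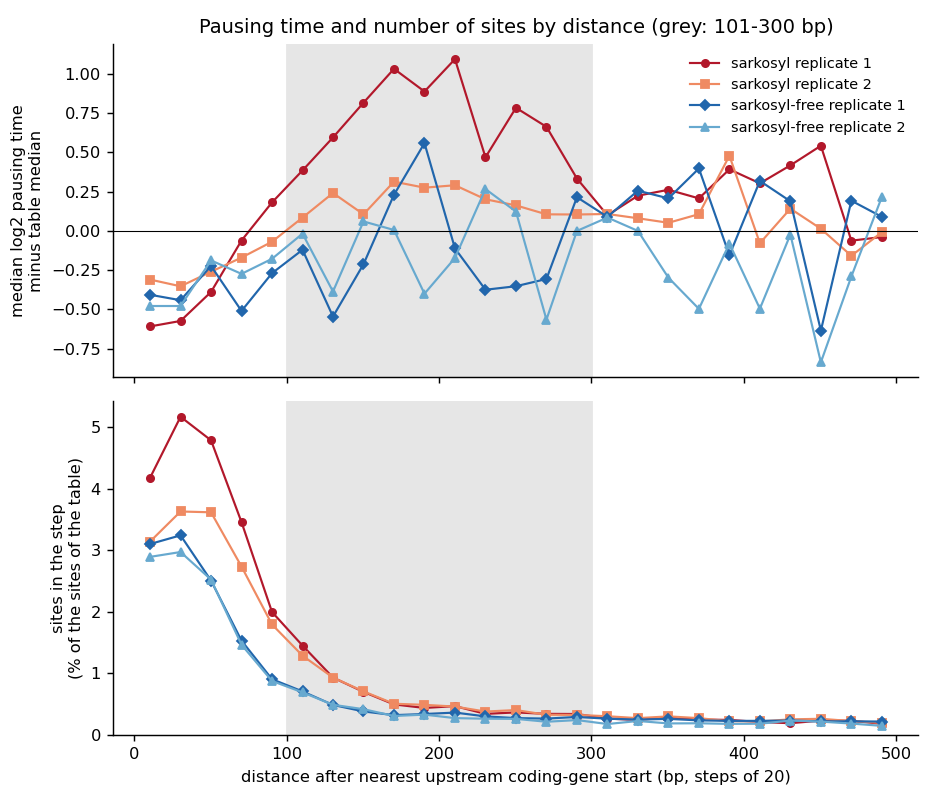
Upper panel, median log2 pausing time minus the table median (vertical axis) in steps of 20 bp by distance after the nearest upstream coding-gene start (horizontal axis, bp); lower panel, the percentage of each table's sites in the step, 1 line per table and the zone in grey. Sarkosyl replicate 1 climbs to 1.10 at 200 to 220 bp, sarkosyl replicate 2 stays between 0.085 and 0.31 in the zone, and the sarkosyl-free tables move between -0.57 and 0.56 without a shared course.

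In steps of 20 bp, named here by the distance they exceed and the distance they reach, both sarkosyl tables lay above their own median in 10 of 10 steps, and both lay above both sarkosyl-free tables in 7 of 10. Sarkosyl replicate 1 started at 0.39 at 100 to 120 bp, reached 1.03 at 160 to 180 bp and 1.10 at 200 to 220 bp, and came down to 0.33 at 280 to 300 bp. Within the zone, sarkosyl replicate 2 was highest at 160 to 180 bp with 0.31 and lowest at 100 to 120 bp with 0.085. Its step at 381 to 400 bp, outside the zone, was higher at 0.48. Of their steps inside the zone, the 2 sarkosyl replicates thus had the high ones in its middle, with replicate 2 at a much smaller height. The sarkosyl-free tables shared no such course. Replicate 1 was lowest at 120 to 140 bp with -0.55 and highest at 180 to 200 bp with 0.56, where replicate 2 stood at -0.40. Replicate 2 was lowest at 260 to 280 bp with -0.57. Both sarkosyl-free tables lay below their median in 4 of 10 steps and above it in 1, and no step reached an exact permutation p below 0.33. The widest separation was at 120 to 140 bp, where the sarkosyl tables stood at 0.60 and 0.24 and the sarkosyl-free tables at -0.55 and -0.39.

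Within genes, sites of the zone were compared with other sites of the same gene and table, so that each gene served as its own reference. Against sites 0 to 60 bp after a start, 76.4% of 747 genes and 73.7% of 653 genes had longer times in the zone with sarkosyl, by a median log2 difference of 1.23 and 0.55. Without sarkosyl this was 51.6% of 690 genes and 51.0% of 345 genes, by 0.13 and 0.082. The buffers did not overlap, and their means were 0.89 ± 0.48 and 0.10 ± 0.031 (SD, n = 2 each, two-sided exact permutation p = 0.33). Against sites 61 to 100 bp after a start the median difference was 0.75 and 0.27 with sarkosyl against 0.19 and 0.32 without it, so the buffers overlapped. Against sites inside the gene more than 1000 bp after a start it was 0.44 and 0.055 with sarkosyl against -0.24 and -0.083 without it, from 872, 965, 1142 and 608 genes. With only the most upstream start of each gene, the sarkosyl mean against sites beyond 1000 bp turned to -0.14, and the sarkosyl-free mean against sites at 0 to 60 bp turned to -0.045, while the sarkosyl mean against 0 to 60 bp was 1.43.

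**Figure D2:**
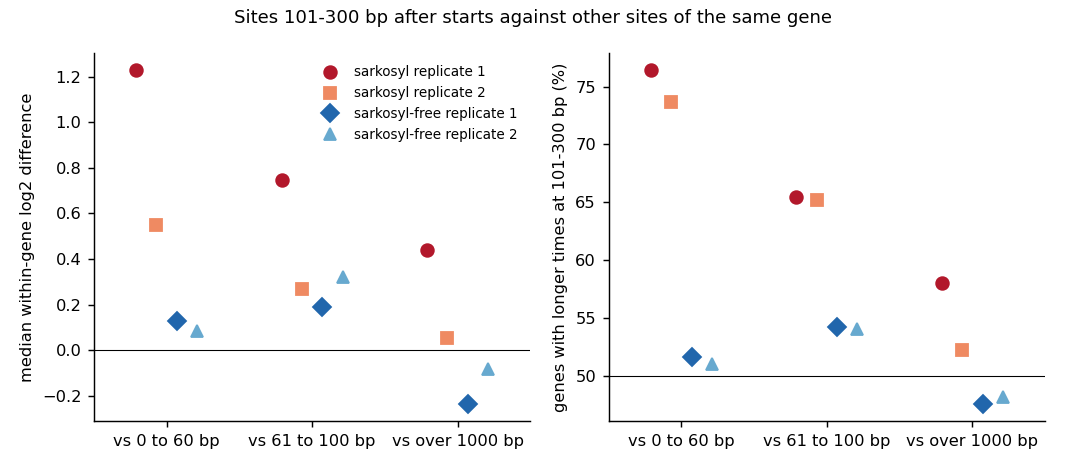
Left, median over genes of the within-gene log2 difference between sites of the zone and sites at 0 to 60, 61 to 100 or over 1000 bp (vertical axis); right, the percentage of genes with longer times in the zone; 1 point per table, with lines at 0 and 50. Against 0 to 60 bp the sarkosyl tables sit at 1.23 and 0.55 and the sarkosyl-free tables at 0.13 and 0.082.

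Genes that had a site at 0 to 60 bp in the same table also had longer times in the zone. They made up 41.3% and 37.9% of the genes with a zone site with sarkosyl against 42.0% and 34.1% without it. Their zone sites stood at 1.03 and 0.23 relative to the table median with sarkosyl against 0.16 and -0.052 without it. In genes with no such site, the zone sites stood at 0.26 and 0.11 with sarkosyl against -0.33 and -0.11 without it. In each of the 4 tables the first value was the higher.

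By annotation of the transcripts that begin at the nearest start, 34.9% and 29.7% of the zone sites with sarkosyl against 29.3% and 29% without it lay in a 5′ UTR. Coding sequence held 16.3%, 18.1%, 13.8% and 13.6% in the same order of tables, exons of transcripts without an annotated coding sequence 15.7%, 16.8%, 20.2% and 21.7%, and introns 33.0%, 35.3%, 36.5% and 35.6%. With sarkosyl the 5′ UTR sites stood lowest of these 4 classes, at 0.19 and 0.0079 relative to the table median. Intronic sites stood at 0.89 and 0.28 with sarkosyl against -0.019 and 0.073 without it. Coding-sequence sites differed widely between the sarkosyl replicates, at 1.22 and 0.099, and stood at -0.021 and -0.78 without sarkosyl. The 30 bp before the end of exon 1 gave 0.83 and 0.50 with sarkosyl against -0.057 and -0.72 without it, from 209, 167, 161 and 73 sites. The 30 bp after it gave 1.10 and 0.34 with sarkosyl against 0.030 and 0.36 without it, from 240, 208, 172 and 98 sites. Before the exon end the buffers did not overlap, and after it they did.

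The base at the pausing site was strongly unequal and differed between the tables. A reference sequence was at hand for 73.3%, 72.1%, 69.9% and 72.4% of the zone sites. With sarkosyl 69.2% and 67.5% of these were at a C and 27.9% and 28.0% at a G. Without sarkosyl 49.9% and 17.9% were at a C and 46.9% and 78.7% at a G. The sites of the zone were at a G more often than the other sites in each table, which had 22.1%, 21.8%, 44.9% and 73.6%. Only 19167, 17023, 21420 and 13674 other sites had a reference sequence. The tables held 46724, 45758, 64484 and 40566 sites on chromosomes 1 to 22 and X, so a smaller part was covered than in the zone. Sequence was at hand only in exons and promoters, and all sequence contrasts with other sites are limited to that part. Bases 11 to 20 positions away from the zone sites were a G in 33.8%, 33.0%, 30.2% and 29.7%, and a C in 27.4%, 27.6%, 27.0% and 26.9%. A G stood 3 bases before the site in 56.9%, 50.4%, 49.0% and 53.0% of the zone sites and in 53.8%, 47.3%, 45.0% and 46.8% of the other sites, so this feature belongs to the series as a whole.

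Of 4 endings examined (CC, GC, AG and CG, read on the RNA strand, with no overlap between them), CC and CG had both sarkosyl tables above and both sarkosyl-free tables below the table median. The difference between buffers was 1.66 at CC and 1.59 at CG. At the other sites of the same endings it was 1.09 and 1.11, so much of it was present outside the zone too. With sarkosyl the CC sites of the zone were barely above the table median, at 0.067 and 0.0059. At GC the levels of 0.92 and 0.13 with sarkosyl against 0.30 and -0.93 without it overlapped. CG is the ending of the CKS2, RPL36 and SRA1 sites printed above, and also of the CITED2 site. The CITED2 site was lower with sarkosyl after centring on the sites shared by all 4 tables. Sites ending in CG made up 21.7%, 20.8%, 15.7% and 30.2% of the zone sites, against 14.7%, 13.4%, 9.67% and 17.7% of the other sites and 7.14%, 7.12%, 6.54% and 6.26% of the adjacent pairs of bases 11 to 20 positions away. Their level in the zone was 0.83 and 0.45 with sarkosyl against -0.94 and -0.95 without it. At the other sites the same ending stood at -0.19 and 0.0079 with sarkosyl against -0.99 and -1.42 without it. Relative to other sites of the same ending, zone sites were thus longer in every table, by 1.02 and 0.45 with sarkosyl against 0.051 and 0.47 without it.

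Sites ending in AG were rare with sarkosyl and common without it. They made up 2.99% and 3.5% of the zone sites with sarkosyl against 22.3% and 33.2% without it, while 9.24%, 9.11%, 8.22% and 8.01% of the adjacent base pairs in the flanks were AG. The other sites showed the same contrast, with AG at 3.29% and 3.52% with sarkosyl against 24.6% and 36.7% without it, so it belongs to the tables as a whole. Without sarkosyl the zone sites ending in AG were long, at 0.90 and 0.42, as were the other sites of this ending, at 0.95 and 0.59. With sarkosyl they stood at 0.61 and -0.086 in the zone and at -0.19 and -0.11 elsewhere. Sites ending in CC made up 39.6% and 37.4% with sarkosyl, at levels of 0.067 and 0.0059, and 17.4% and 6.67% without it, at -0.94 and -2.32. Their share of the other sites was close to this, at 42.6%, 38.6%, 17.8% and 8.05%. The level of CC at the other sites was -0.33 and -0.098 with sarkosyl against -0.78 and -1.82 without it. Within sites at a C, the zone differed from other sites by 0.64 and 0.14 with sarkosyl against 0.12 and -0.20 without it. Within sites at a G, it differed by 0.92 and 0.28 with sarkosyl against -0.27 and -0.17 without it. The longer times with sarkosyl were therefore present at both of these bases, while the sarkosyl-free tables disagreed in sign at C. Longer zone sites had less GC in the 20 bases before them. The mean GC was 57.5%, 59.3%, 55.0% and 55.8% in the 25% of zone sites with the longest times and 64.7%, 63.9%, 60.3% and 59% in the 25% with the shortest.

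Replicates of a buffer shared part of their zone sites. The sarkosyl tables shared 1005 positions, 36.7% of those of replicate 1 and 37.8% of those of replicate 2. Spearman's rho of their times across these positions was 0.71, as a description of sites that share a table. Outside the zone the shares were 35.8% and 36.6%, with a rho of 0.68. The sarkosyl-free tables shared 562, which is 23.5% and 39.9% of each, with a rho of 0.41, compared with 20.4% and 32.4% and a rho of 0.48 outside it. Across buffers the 4 pairs shared 272 to 477 positions, with rho between -0.021 and 0.073. Of the 6895 positions, 5182 were in 1 table, 1274 in 2, 289 in 3 and 150 in all 4. Listed in both tables of only 1 buffer were 682 positions for sarkosyl and 296 for sarkosyl-free.

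The 150 positions in all 4 tables, in 132 genes, allow the buffers to be compared site by site. Their median times were 2.01 and 1.88 with sarkosyl against 1.19 and 1.81 without it, compared with 1.22, 1.28, 1.32 and 1.43 at all 2967 sites that the 4 tables share. Over all zone sites the medians were 2.39, 1.52, 2.08 and 7.81. The shared positions therefore do not stand for the zone sites of sarkosyl-free replicate 2, where they were far shorter. The median log2 difference between buffers, after centring each table on its shared sites, was 0.64 in the zone and 0.22 over all 2967 sites. It was above 0 at 96 of the 150 zone sites, or 64.0%, against 53.9% of all sites. limma, fitted over all 2967 sites with Benjamini-Hochberg adjustment, called 0 sites at 0.05, or 0.00% of all, and 0 of the 150 zone sites, with a smallest adjusted p of 0.15. At an unadjusted p under 0.05, limma gave longer times with sarkosyl at 19 zone sites (12.7%, against 12.0% of all sites) and shorter times at 11 (7.33%, against 11.2%). The buffers did not overlap, with longer times with sarkosyl, at 51 zone sites (34.0%, against 31.6% of all sites), and with shorter times at 27 (18%, against 25.7%). The longer counts are near their background, and the shorter counts are below it. The count of 0 rested on both sarkosyl-free tables, since limma called 65 zone sites (43.3%, against 53.8% of all sites) without sarkosyl-free replicate 1 and 42 (28.0%, against 22.2%) without sarkosyl-free replicate 2, where the lone table is assumed to vary like the sarkosyl tables. Quantile normalization and normal scores of ranks gave 6 zone sites each, or 4.0%, against 5.33% and 7.79% of all sites.

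**Figure D3:**
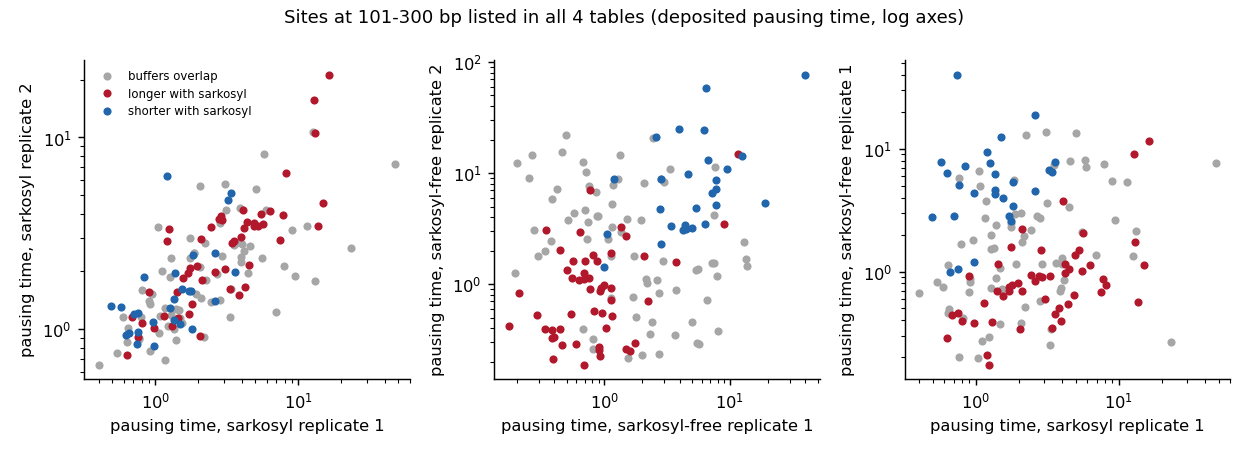
Deposited pausing times (log axes, unit not stated) of the 150 zone sites listed in all 4 tables, for the sarkosyl replicates (left), the sarkosyl-free replicates (middle) and replicate 1 of each buffer (right); red and blue points are the 51 and 27 sites whose buffers do not overlap after centring. The sarkosyl replicates follow each other, the sarkosyl-free replicates do so more loosely, and across buffers no common course is seen.

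CKS2, which encodes a subunit that binds cyclin-dependent kinases, had the largest difference toward longer times with sarkosyl. Its site in the coding sequence, 137 bp after the most upstream start, had times of 13.0 and 10.5 with sarkosyl against 1.74 and 0.294 without it. Both sarkosyl values lay above both others, as the choice of sites required, and limma gave a log2 difference of 4.17 ± 1.06 (SE, adjusted p = 0.16). The site in RPL36, a protein of the large ribosomal subunit, lies in coding sequence 277 bp after an internal start, with times of 7.46, 2.92, 0.683 and 0.189. SRA1, known as a steroid receptor RNA activator, had a site 239 bp after an internal start, with 3.97, 3.01, 0.397 and 0.338. It lies in an exon, and the transcripts that begin at that start have no annotated coding sequence there. Other transcripts of the gene were not considered for this class. At all 3 sites sarkosyl-free replicate 2 had the shortest time. That table is the longest as a whole, but not at the zone sites listed in all 4 tables. There its median was 1.81, against 2.01 and 1.88 with sarkosyl.

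The reverse pattern was led by RMND5A, which encodes a subunit of an E3 ubiquitin ligase complex. Its 5′ UTR site, 168 bp after the most upstream start, had times of 0.745 and 0.832 in the sarkosyl tables against 40 and 76.9 in the others, a limma log2 difference of -6.00 ± 0.75 (SE, adjusted p = 0.15). An intronic site of GAPDH, the glycolytic dehydrogenase, lies 181 bp after an internal start at chromosome 12, position 6535483, with 1.5, 1.07, 12.5 and 14.3. RPL6, another protein of the large ribosomal subunit, had a 5′ UTR site 169 bp after an internal start with 0.571, 1.30, 7.81 and 7.14. These 3 sites were drawn from those whose buffers do not overlap, so their separation follows from the choice. It does not extend to the zone median of GAPDH, which overlapped between buffers. At the GAPDH and RPL6 sites the sarkosyl-free replicates lay close together.

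Over the mean of the 4 tables the longest zone sites were in TOR1AIP2, NFKBIB and CITED2. TOR1AIP2, which encodes a nuclear envelope protein that binds torsins, had an intronic site with times of 16.4, 21.3, 11.6 and 14.7, long in every table. NFKBIB, an inhibitor of the transcription factor NF-kappa-B, had an intronic site with 47.6, 7.25, 7.58 and 11.4, so that 1 table set much of its rank. CITED2, a transcriptional co-regulator, had 3.40, 5.13, 6.45 and 58.8 at a 5′ UTR site 144 bp after its start, and here sarkosyl-free replicate 2 stood apart. The shortest were in FMC1, with 0.404, 0.653, 0.673 and 0.393 at an intronic site, SRXN1, with 0.629, 0.728, 0.288 and 0.529, and TOMM20, with 0.801, 1.07, 0.393 and 0.211. SRXN1 encodes sulfiredoxin and TOMM20 a receptor of the mitochondrial import channel, and both sites lie after the most upstream start. Of the 150 positions, 2 each were assigned to MTRNR2L12 and MTRNR2L8, which are near-identical copies of mitochondrial ribosomal RNA, so their reads cannot be placed with certainty.

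By gene, 380 of the 3365 genes had a zone site in every table. In 138 of these (36.3%) the zone median of both sarkosyl tables lay above both sarkosyl-free tables, and in 39 (10.3%) below. For sites outside the zone, the medians of 4380 genes with sites in every table separated upward in 24.3% and downward in 16.1%. A zone median rests on few sites, since 70.1% to 76.3% of the genes with a zone site had 1 such site in a table, and this difference in site number is part of the comparison.

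**Figure D4:**
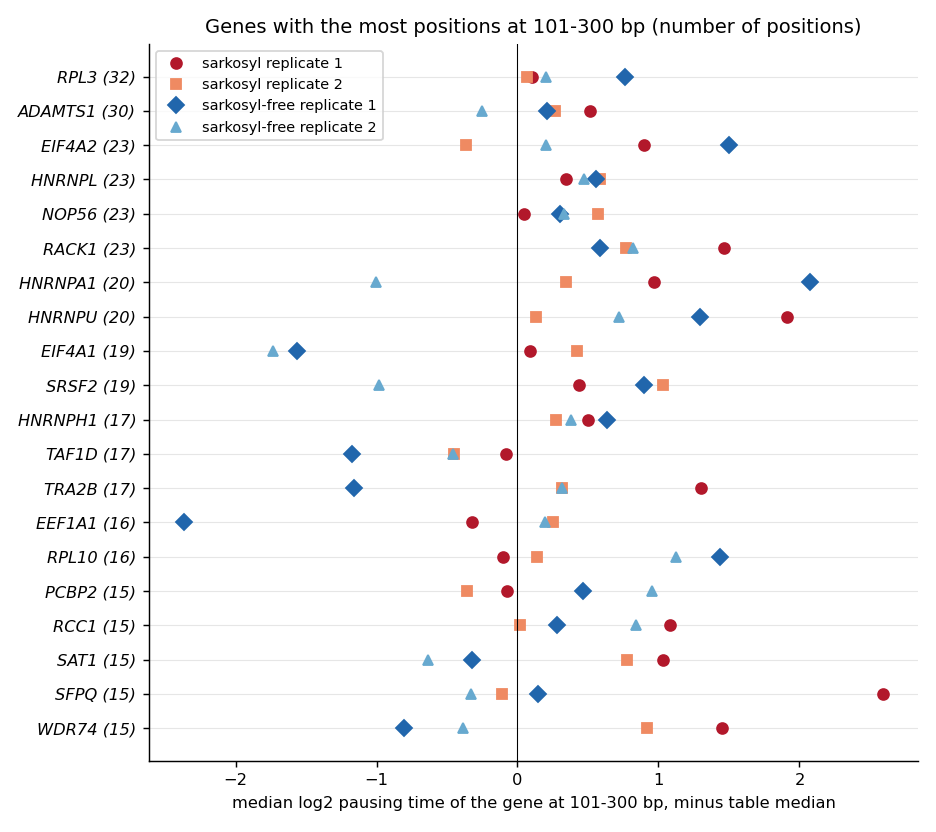
Median log2 pausing time of the zone sites of a gene minus the table median (horizontal axis), 1 point per table, for the 20 genes with the most zone positions among those with a zone site in every table (number of positions in brackets). In 6 genes both sarkosyl points lie right of both sarkosyl-free points, in 3 they lie left of them, and in the others they overlap.

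Of the 20 genes with the most zone positions among those seen in every table, 6 (30%) had both sarkosyl medians above both sarkosyl-free medians and 3 (15%) had them below. Over all 380 genes the shares were 36.3% and 10.3%, near those of these 20 genes. RPL3, a protein of the large ribosomal subunit, had 32 positions after 7 starts, 5 of them after the most upstream start. Its levels relative to the table median were 0.10 and 0.064 with sarkosyl against 0.76 and 0.20 without it, so it was among the 3 that were lower with sarkosyl. RPL10, of the same subunit, stood at -0.099 and 0.14 with sarkosyl against 1.43 and 1.12 without it. PCBP2, which binds C-rich RNA, stood at -0.077 and -0.36 with sarkosyl against 0.47 and 0.95 without it. In both of these genes the buffers did not overlap.

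Among the 6 genes that were higher with sarkosyl, WDR74, a factor of ribosome assembly, had 13 of its 15 positions after its most upstream start. Its median times were 4.15, 2.56, 1.38 and 6.29, and its levels were 1.45 and 0.92 with sarkosyl against -0.81 and -0.39 without it. Whether a gene of another type overlaps these positions was not examined. EIF4A1, an RNA helicase of translation initiation, had 19 positions, none after its most upstream start, at 0.090 and 0.42 with sarkosyl against -1.56 and -1.73 without it. Its close relative EIF4A2 gave overlapping values of 0.90, -0.37, 1.5 and 0.20. SAT1, which acetylates polyamines, stood at 1.03 and 0.78 with sarkosyl against -0.32 and -0.63 without it. ADAMTS1, a secreted metalloprotease, had 30 positions, 8 of them after its most upstream start, at 0.51, 0.27, 0.21 and -0.25. TAF1D, a subunit of the polymerase I selectivity factor, gave -0.083, -0.45, -1.18 and -0.45, and the splicing factor TRA2B gave 1.30, 0.32, -1.16 and 0.32, where a sarkosyl and a sarkosyl-free value nearly coincide in each gene.

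The other 11 genes overlapped between buffers. In HNRNPA1, which binds nascent RNA, the sarkosyl-free tables themselves lay far apart, at 2.07 and -1.0, around sarkosyl values of 0.97 and 0.34. EEF1A1, which delivers aminoacyl-tRNA to the ribosome, likewise gave -2.37 and 0.19 without sarkosyl and -0.32 and 0.25 with it. SFPQ, a paraspeckle protein, gave 2.60 in sarkosyl replicate 1 from 3 sites and -0.11 in replicate 2. RACK1, a scaffold on the small ribosomal subunit, was above the table median throughout, at 1.46, 0.77, 0.59 and 0.82. HNRNPL, HNRNPU, HNRNPH1, NOP56 and RCC1 were also above the table median throughout, and SRSF2 completed the set. Ribosomal protein genes, GAPDH, EEF1A1 and HNRNPA1 have many near-identical processed copies in the genome, and how reads with several matches were treated is not given in the sources used here.

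**Figure D5:**
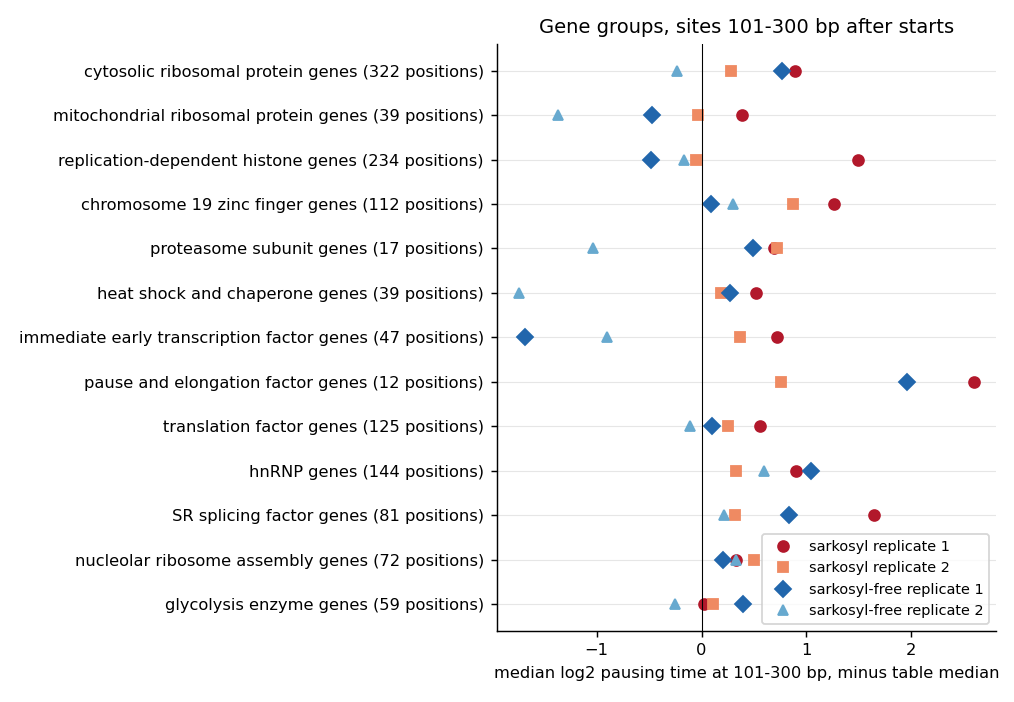
Median log2 pausing time of zone sites minus the table median (horizontal axis) for 13 gene groups, 1 point per table, with the number of distinct zone positions of the group in brackets. The immediate early genes show the widest gap between buffers with values in all 4 tables, at 0.72 and 0.37 with sarkosyl against -1.68 and -0.90 without it.

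Levels in the zone are given next by gene group, without a test of the differences between groups. Counts of genes are to be read against the 36.3% of all 380 genes that were higher with sarkosyl and the 10.3% that were lower. Immediate early transcription factor genes, whose induction is known to pass through release of paused polymerase, had zone sites in 14 of 21 genes, at 0.72 and 0.37 with sarkosyl against -1.68 and -0.90 without it. Of their 5 genes seen in every table, 2 were higher with sarkosyl against 0 lower, near the share over all genes. JUND, a subunit of the transcription factor AP-1, had 7 of its 10 positions after the most upstream start and gave median times of 3.73, 2.43, 15.4 and 3.25. Its levels of 1.30, 0.75, 1.51 and -1.34 overlapped between buffers. Those of ATF3, a stress-induced transcription factor with 8 positions, did so too, at -0.53, 0.28, -2.13 and 0.39, so neither gene shows the gap of its group. Zinc finger genes of chromosome 19, which encode mostly transcriptional repressors in clusters, were above the table median in all 4 tables, at 1.26, 0.87, 0.087 and 0.30, from 64 of 246 genes. ZNF790 gave median times of 3.05 and 5.99 with sarkosyl against 7.19 in sarkosyl-free replicate 2, with no zone site in the remaining table. ZNF146 had levels of 0.96 and 1.92 with sarkosyl against -0.33 in sarkosyl-free replicate 1, and no zone site in the other table. Of the 4 zinc finger genes seen in every table, 3 were higher with sarkosyl against 1 lower, too few to set against the share over all genes.

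Cytosolic ribosomal protein genes had the most positions of the groups, 322 in 73 of 83 genes, at 0.89, 0.29, 0.76 and -0.23. Of their 37 genes seen in every table, 14 were higher with sarkosyl, and 3 were lower, a share close to that over all 380 genes. Mitochondrial ribosomal protein genes, with zone sites in 18 of 77 genes, stood at 0.39 and -0.033 with sarkosyl against -0.48 and -1.37 without it. Their genes with the most positions, MRPL53 and MRPS34, had 5 each and were both higher with sarkosyl. MRPL53 stood at -0.14 and 0.58 with sarkosyl against -0.84 and -0.74 without it, from 2, 3, 2 and 1 sites. MRPS34 stood at 1.15 and -0.0096 against -0.72 and -0.20, from 2, 2, 1 and 1 sites. Translation factor genes stood at 0.55, 0.25, 0.10 and -0.11, and glycolysis enzyme genes at 0.024, 0.11, 0.40 and -0.25. PKM, the pyruvate kinase gene, stood at 1.88 and 0.24 with sarkosyl against -0.99 and -0.91 without it, from 2, 1, 6 and 2 sites. The 2 sites behind 1.88 had times of 0.684 and 45.5. The zone median of GAPDH overlapped, at 0.14, 0.067, 1.44 and -0.28. Genes of nucleolar ribosome assembly stood at 0.33, 0.50, 0.20 and 0.33, above the table median throughout. NOP56, a component of box C/D particles, overlapped between buffers at 0.047, 0.57, 0.30 and 0.33, and NCL, which encodes nucleolin, was lower with sarkosyl, at 0.37 and -0.51 against 0.66 and 1.74.

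Replication-dependent histone genes, whose transcripts are as a rule short and unspliced, had 234 positions in 48 of 66 genes. They stood at 1.49 and -0.057 with sarkosyl against -0.48 and -0.17 without it. Of their 22 genes seen in every table, 5 were higher with sarkosyl and 3 lower, a smaller share higher than the 36.3% of all 380 genes. HIST1H1C, a linker histone gene with all 13 positions after its only start, ran the other way from the zone as a whole. Its median times were 1.13 and 1.19 with sarkosyl against 6.90 and 22.9 without it, and its levels were -0.42, -0.19, 1.63 and 1.42. HIST2H2BF, which encodes an H2B histone, had 11 positions, none after its most upstream start, and went with the zone, at 2.51 and 0.40 with sarkosyl against -0.51 and -0.78 without it. Histone gene copies are alike in sequence, and this placement is uncertain for the same reason as above.

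hnRNP genes stood at 0.90, 0.33, 1.05 and 0.60 in the 4 tables, positive in each, with 144 positions in 18 of 24 genes. Of the 9 seen in every table, 0 were higher with sarkosyl, and 1 was lower, against 36.3% and 10.3% of all 380 genes. SR splicing factor genes were likewise above the median throughout, at 1.64, 0.32, 0.83 and 0.22, with 3 of 6 genes higher with sarkosyl, and 2 lower, again few beside the same shares. Proteasome genes stood at 0.69, 0.72, 0.50 and -1.04 on 17 positions, and heat shock and chaperone genes at 0.52, 0.18, 0.28 and -1.74 on 39 positions. In both groups sarkosyl-free replicate 2 alone lay below the table median. Of the core proteasome genes, PSMB1 nevertheless had 1.72 in that table, where it had 1 site. With sarkosyl PSMB1 stood at 0.033 and -0.31, from 2 and 3 sites. PSMA7 had zone sites in replicate 1 of each buffer alone, at 0.41 with sarkosyl against 0.96 without it. The chaperone genes HSP90AA1 and HSPA4 had no zone site in sarkosyl-free replicate 2. HSP90AA1 stood at 0.058 and 0.26 with sarkosyl against 1.90, from 1, 4 and 3 sites. HSPA4 stood at -1.14 and -0.17 against 1.22, from 1, 2 and 1 sites. These levels ran against the zone as a whole, on too few sites to describe either gene. Genes for the pausing and elongation machinery itself had zone sites in 8 of 26 genes and 12 positions, with 2.60, 0.76 and 1.96 in 3 tables and no site in sarkosyl-free replicate 2. HEXIM1, which holds P-TEFb inactive, had 3 positions 129 to 142 bp after its only start, with median times of 40.3 in sarkosyl replicate 1, 7.64 in sarkosyl replicate 2 and 18.2 in sarkosyl-free replicate 1. These were 4.08, 2.48 and 3.03 above the table median on the log2 scale. CTR9, a subunit of the PAF1 elongation complex, had 2 positions, at -0.068 and 0.67 with sarkosyl and none without it.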

How the data were processed

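Run-on sequencing of HEK293 cells was deposited as 4 tables, 1 per buffer and replicate number. Per the labels, 16 samples cover the 2 buffers, 4 run-on times and 2 replicates, and a further sample of the 17 listed, a Trp treatment, was not analysed here. Per the file headers, each deposited row holds a position with quartiles and median of a fitted estimate and a pausing time, which equals the reciprocal of the median to within 3.4e-13. The deposited pausing time and rates have no stated unit and fall under no standard unit. The submitters' processing notes name cutadapt 1.14, HISAT2 2.1.0, SAMtools, bedtools and hg38, with no role or order. How sites were called, how replicates entered and how reads with several matches were counted are not given in the sources used here. Every value column was mapped to a buffer, with 0 left over.

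Distances were taken to GENCODE release 29 starts with Python 3.11.15, numpy 2.4.6, pandas 2.3.3 and scipy 1.17.1. Positions count from 1, since with that reading sites are a C or G in 96.3% on the plus and 95.8% on the minus strand, and the neighbouring bases match between strands. Sequence was read only where a transcript exon or a RefSeq promoter holds it in 1 piece, so most intronic sites have none. Genes were assigned by the nearest start of a protein-coding gene, and overlapping genes of other types were not considered. limma 3.58.1 in R 4.3.3 was fitted to log2 pausing time over the 2967 sites in all tables, each table centred on its median, with both groups in the fit and no covariates, and was tested on simulated data. Buffers were otherwise compared by two-sided exact permutation tests of table values. The exact test cannot reach 0.05 with 2 tables against 2. Figures were drawn with matplotlib 3.10.9.

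Single sites named are the 3 largest differences in each direction among sites whose buffers do not overlap, and the 3 longest and 3 shortest over the 4 tables. Genes named are the 20 with the most zone positions among those with a zone site in every table, and the 2 with the most in each gene list. The zone, the members and the gene lists were chosen with earlier results of these data known. Alternatives covered the summary, the set of sites and starts, strand, chromosome, normalization, the replicate block and each table left out. A marker gene of the HEK293 list is not reported here.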

Additional observations from a re-analysis of the deposited data

Results flagged for a closer look

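Several differences between buffers had both sarkosyl tables on 1 side of the reference and both sarkosyl-free tables on the other. These differences were not tested beyond the exact permutation p of 0.33, the smallest possible here. For the zone against other sites, the buffers differed by 0.52 on the log2 scale, with sarkosyl above 0 and sarkosyl-free below it. Sarkosyl replicate 1 set much of that size, since the difference was 0.27 without it and 0.78 without sarkosyl replicate 2. On the more certain sites, those with the smaller ratio of upper to lower quartile in each table, it was 0.25, with a sarkosyl level of 0.20. Among steps of 20 bp, named by the distance they exceed and the distance they reach, the difference relative to the table median was 0.30 at 100 to 120 bp, 0.88 at 120 to 140 bp, 0.84 at 200 to 220 bp and 0.82 at 260 to 280 bp. Within genes, against sites more than 1000 bp after a start, the buffers differed by 0.41.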

How the results depend on the processing

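Of 176 alternatives, 137 counted as kept, 34 as moved and 5 as reversed in sign. Levels and shares were kept within the spread of the replicates, and counts within 1.5 times. Differences between buffers have no such spread, and they counted as kept even after large changes. For the zone the difference went from 0.52 to 1.06 with starts that have a site at 0 to 60 bp. Within genes against 0 to 60 bp it went from 0.78 to 1.48 with most upstream starts. Leaving out 1 of the 2 tables of a buffer always shifts its mean by less than their SD, so such levels could not count as moved. The sarkosyl zone level thus counted as kept although it went from 0.43 to 0.17 without sarkosyl replicate 1. So did the buffer difference within genes against 61 to 100 bp, which went from 0.25 to 0.015. The zone level with sarkosyl was above 0 in 19 of 20 alternatives, and the sarkosyl-free level was below 0 in 19 of 20. With the most upstream start of each gene only, the sarkosyl level was -0.036 and the sarkosyl-free level -0.38. On sites in all 4 tables the sarkosyl-free level was 0.050. The sarkosyl-free level was also -0.073 on sites in both tables of a buffer, -0.075 on the plus strand, -0.20 with starts of protein-coding transcripts, -0.23 without sites that have another within 50 bp, -0.15 with gene medians, -0.056 on the more certain sites and -0.12 against sites beyond 1000 bp. Chosen after seeing the data were sites at C only (-0.044), sites at G only (-0.22) and starts with a site at 0 to 60 bp (-0.15, and 0.91 with sarkosyl), as well as distances up to 200 bp, distances beyond 200 bp and the zone without the 20 named genes. Within genes against 0 to 60 bp, the sarkosyl-free value was 0.14 with means, 0.0077 with at least 2 sites in both intervals and -0.045 with most upstream starts, where sarkosyl gave 1.43. Against 61 to 100 bp it was -0.27 with at least 2 sites and 0.078 with most upstream starts. Against sites beyond 1000 bp, most upstream starts gave -0.14 with sarkosyl and -0.47 without it. The zone share was 6.07% and 3.29% with starts of protein-coding transcripts, and 5.89% with sarkosyl on the plus strand.

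limma called 158 sites, 6 of them in the zone, after quantile normalization, and 231 sites, 6 in the zone, on normal scores. With the replicate number as a replicate block it called 161 sites, 3 in the zone. The labels do not say what a number pairs, and the correlation of same-numbered deviations was 0.0134, so the numbers are not taken to pair the tables. Leaving out 1 table in turn gave 0 to 1597 called sites, 0 to 65 in the zone, and 3 to 79 zone sites at an unadjusted p under 0.05, against 30 with all tables. The cause of these changes was not tested. Read depth, the time unit and multiple mapping are unknown, and 2 tables a buffer limit every comparison.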
